A study of Caenorhabditis elegans with 2 samples.

Results

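The peaks described here are the promoter peaks of the tagged protein Y75B8A.6 that lie away from small RNA genes. A peak of the series' main list was a member when its summit fell in the promoter window of a protein-coding gene, which began 1000 bp before an annotated transcript start and ended 300 bp after it, and did not fall within 500 bp of the start of a tRNA, snoRNA or snRNA gene. By this rule 314 of the 933 peaks were members, 33.7% of the list (95% exact binomial interval 30.6 to 36.8%). They made up 81.6% of the 385 peaks with a summit in a promoter window. The remaining 71 promoter peaks lay near a small RNA gene, and 548 peaks lay outside every promoter window. All intervals here cover counting error only, and peaks are not replicates of a condition.

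Both libraries came from 1 group: whole L4 larvae of Caenorhabditis elegans strain RW12275, collected at 48 h after L1 arrest by starvation. The strain carries the allele st12275, a CRISPR insertion on chromosome III that fuses TY1, EGFP and 3xFLAG tags to Y75B8A.6, and chromatin was precipitated with an antibody against GFP. The 2 libraries are biological replicates. Since whole animals were used, the tissue in which a site was occupied cannot be read from these data, and no untagged or input library was analysed here.

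A promoter is the stretch of DNA around a gene's start where the transcription machinery and its regulators assemble. In C. elegans many transcripts receive a spliced leader by trans-splicing, so an annotated start often marks the splice site and the start of transcription lies upstream of it. Genes are closely packed in this genome, and 2 neighbouring genes on opposite strands can share the DNA between their starts. Such a pair is called divergent. Genes for tRNAs, and some other small RNAs, are read by RNA polymerase III from promoter elements that include the B box, and the rule sets peaks near them aside.

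The DNA at the summits of highest signal is shown first, because it carries the base composition and the short motifs described further on. The windows reach 50 bp to each side of the summit, read 5′ to 3′ on the strand of the nearest gene, from the RefSeq copy of WBcel235, which is the ce11 assembly of the peak lists. Each window is free of annotated exons. Capitals mark CGCG, the GA repeat GAGAGA, the E box CACGTG and the 8-mer AGACGCAG on either strand. The first 6 are the members of highest signal that met these conditions.
rpl-3, chrIII:3867515-3867615 (+ strand), 289 bp upstream of rpl-3, signal 302.1: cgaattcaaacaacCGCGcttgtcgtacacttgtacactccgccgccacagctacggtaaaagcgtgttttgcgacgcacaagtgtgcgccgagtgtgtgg
F44E5.4 and F44E5.5, chrII:11759419-11759519 (- strand), 158 bp upstream of F44E5.4, signal 245.8: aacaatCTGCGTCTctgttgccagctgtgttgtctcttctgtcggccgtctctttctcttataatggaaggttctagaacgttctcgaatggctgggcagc
mog-4, chrII:14561818-14561918 (- strand), 269 bp upstream of mog-4, signal 242.4: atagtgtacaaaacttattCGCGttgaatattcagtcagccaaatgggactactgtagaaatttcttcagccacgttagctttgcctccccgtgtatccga
cdc-48.1, chrII:10563536-10563636 (- strand), 179 bp upstream of cdc-48.1, signal 238.1: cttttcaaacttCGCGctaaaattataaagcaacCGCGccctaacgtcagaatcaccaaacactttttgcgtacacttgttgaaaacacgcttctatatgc
tasp-1 and K01G5.10, chrIII:10759200-10759300 (+ strand), 57 bp upstream of tasp-1, signal 230.2: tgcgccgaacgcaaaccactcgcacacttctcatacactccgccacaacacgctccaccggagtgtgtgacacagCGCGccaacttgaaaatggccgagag
Y17G9B.5 and rpl-20, chrIV:4750051-4750151 (+ strand), 139 bp upstream of Y17G9B.5, signal 178.5: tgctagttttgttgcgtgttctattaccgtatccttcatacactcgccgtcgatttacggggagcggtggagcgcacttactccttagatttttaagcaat
The rpl-3, mog-4, cdc-48.1 and tasp-1 windows hold CGCG, the F44E5.4 window holds the 8-mer, and the Y17G9B.5 window holds none of the 4 motifs. Their GC content ran from 40.6% at cdc-48.1 to 58.4% at tasp-1.

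The next 5 windows hold AGACGCAG and were chosen after their values were seen, as the members of highest signal with that 8-mer outside the first 6.
sec-61.G and F32D8.13, chrV:10897316-10897416 (- strand), 223 bp upstream of sec-61.G, signal 163.5: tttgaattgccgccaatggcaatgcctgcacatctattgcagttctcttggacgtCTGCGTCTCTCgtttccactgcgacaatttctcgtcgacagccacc
drr-2 and set-16, chrIII:13643691-13643791 (- strand), 171 bp upstream of drr-2, signal 124.4: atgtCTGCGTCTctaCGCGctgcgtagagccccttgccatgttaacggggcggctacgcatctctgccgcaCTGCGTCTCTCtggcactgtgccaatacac
K07C5.13, chrV:10341936-10342036 (+ strand), 69 bp upstream of K07C5.13, signal 109.1: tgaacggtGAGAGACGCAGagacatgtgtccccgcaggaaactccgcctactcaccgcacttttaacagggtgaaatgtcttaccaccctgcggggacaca
R107.5 and cls-2, chrIII:9054012-9054112 (- strand), 272 bp upstream of R107.5, signal 105.8: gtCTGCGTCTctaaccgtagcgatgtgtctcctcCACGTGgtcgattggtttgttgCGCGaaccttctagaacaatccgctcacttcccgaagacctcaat
ntl-11, chrIV:15471570-15471670 (- strand), 125 bp upstream of ntl-11, signal 93.2: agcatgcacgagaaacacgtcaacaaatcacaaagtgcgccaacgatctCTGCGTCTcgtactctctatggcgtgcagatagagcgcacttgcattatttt
The 8-mer runs straight into a GA repeat at sec-61.G, drr-2 and K07C5.13, where the joined capitals show both motifs overlapping. The drr-2 window holds the 8-mer 2 times. Another 3 windows hold the E box and were likewise chosen after their values were seen.
tos-1, chrV:9344209-9344309 (- strand), 56 bp upstream of tos-1, signal 88.47: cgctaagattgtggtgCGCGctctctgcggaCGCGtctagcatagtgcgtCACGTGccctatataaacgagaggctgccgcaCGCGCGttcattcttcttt
T26A8.4 and pdtf-1, chrIV:8432914-8433014 (- strand), 71 bp upstream of T26A8.4, signal 81.08: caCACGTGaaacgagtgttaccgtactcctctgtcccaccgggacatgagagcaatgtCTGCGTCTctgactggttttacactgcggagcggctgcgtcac
atg-9, chrV:349155-349255 (+ strand), 180 bp upstream of atg-9, signal 70.95: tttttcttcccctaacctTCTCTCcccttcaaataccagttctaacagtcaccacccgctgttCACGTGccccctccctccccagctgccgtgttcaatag
The T26A8.4 window holds both the E box and the 8-mer, and the tos-1 window holds CGCG 4 times, in 1 case as overlapping copies.

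Member summits were densest in the last 300 bp before a start. The signed distance to the nearest start had a median of -210 bp, with quartiles of -440.5 and -27.5 bp and a range of -999 to 291 bp, where a negative value is upstream. Of the 314 summits, 250 were upstream of their nearest start (79.6%, interval 74.7 to 83.9%) and 64 were at or downstream of it. The window itself is mostly upstream, with 73.4% of the bases that could hold a member there, a share just below the interval. Within 100 bp of a start lay 78 summits (24.8%), and within 200 bp lay 142 (45.2%). For comparison, promoter peaks near small RNA genes had a median distance of -411 bp.

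The window is wide, so the number of summits was set against the bases that could hold one. The bases inside promoter windows and more than 500 bp from a small RNA start came to 27812573, which gives 11.3 members per Mb. Between 300 and 1 bp upstream the rate was 18.01 to 21.2 members per Mb in each 100 bp bin. It was 11.7 per Mb in the first 100 bp downstream and 5.45 per Mb in the last 100 bp downstream. At the far upstream end, the bin beginning 1000 bp before the start held 5.00 per Mb and the next held 4.37 per Mb.

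**Figure D1:**
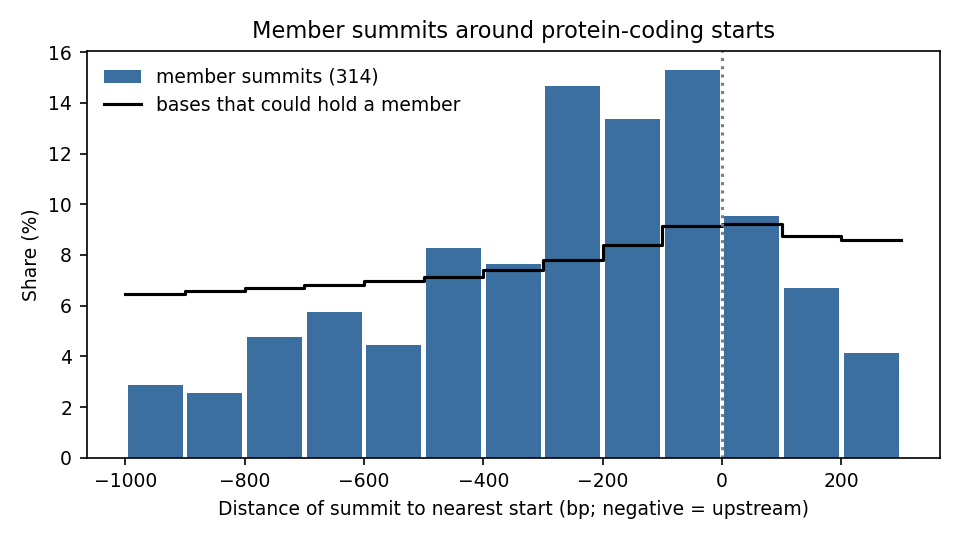
Share of the 314 member summits (blue bars) and share of the bases that could hold a member (black line) in 100 bp bins of signed distance to the nearest protein-coding start. The bars exceed the line most clearly from 300 to 1 bp upstream, at 13.4 to 15.3% of summits per bin against 7.82 to 9.16% of bases.

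The annotated feature under the summit was intergenic DNA for 196 members (62.4%), a coding exon for 47 (14.97%), an intron for 41 (13.1%), a 5′ UTR for 17 and a 3′ UTR for 13. In 88 cases the summit lay in the body of the gene whose window held it, in 27 in the body of another gene, and in 3 in both. Signal is a strength that the authors deposited for each peak, on a scale not stated in the labels or headers. Its median was 64.0 for intergenic summits, 64.2 for 5′ UTR, 60.5 for 3′ UTR, 57.9 for intron and 54.3 for coding exon summits. Coding exon members therefore had the lowest median of the 5 features. The highest signal was 72.8 for 3′ UTR, 78.3 for coding exon, 109.1 for intron, 165.5 for 5′ UTR and 302.1 for intergenic members.

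Members were spread over all 6 chromosomes at unequal rates. Chromosome III held 65 members at 18.3 per Mb of eligible promoter DNA, and chromosome I held 66 at 16.5 per Mb. Chromosomes IV and II held 57 and 52, at 11.9 and 11.2 per Mb. The X chromosome held 32 at 7.79 per Mb, and chromosome V held 42 at 6.26 per Mb. Chromosome V thus held 13.4% of the members and 24.1% of the eligible bases. Median signals by chromosome lay between 58.4 and 63.7, so the chromosomes differed in number of members more than in their strength.

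Most summits fell in the window of 1 gene, and 80 of 314 (25.5%, interval 20.7 to 30.7%) fell in the windows of more than 1. These comprised 61 divergent pairs (19.4%, interval 15.2 to 24.2%), 13 sets of genes on the same strand and 6 sets of 3 or more genes on both strands. Divergent overlaps were 8.63% of the eligible bases, so members occurred there at 25.4 per Mb, against 9.43 per Mb in windows of 1 gene. The rate was 29.4 per Mb in same-strand windows and 45.5 per Mb in windows of 3 or more genes on both strands, the last from 6 members. No member lay where 2 opposite-strand genes face each other, a class that takes 0.0902% of the bases, and 0 of 314 allows a share of up to 0.955%.

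In the divergent pairs, the starts were a median of 621 bp apart (range 92 to 1659 bp), and 56 of 61 summits lay between them. The nearer start was a median of 189 bp from the summit and the farther one 432 bp. For the 56 summits in between, the nearer distance was a median of 37.5% of the gap, where 50% would be the midpoint. In 17 pairs both starts lay within 300 bp of the summit.

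The divergent pair of highest signal was F44E5.4 and F44E5.5, both Hsp70 family chaperone genes. Its summit, with a signal of 245.8, lay 158 bp from the first start and 193 bp from the second. The signal was 230.2 between tasp-1, a threonine aspartase gene, and K01G5.10, with the starts 57 and 728 bp away. Ribosomal protein genes were in several pairs: rpl-20 with Y17G9B.5 (signal 178.5), rpl-15 with K11H12.8 (176.1), rpl-12 with lin-54 (126.9), rps-19 with hsr-9 (122.7) and rps-1 with ifet-1 (98.3). Of their partners, lin-54 encodes a DNA-binding subunit of the DREAM complex and ifet-1 a translational repressor. The pair drr-2, which encodes an eIF4H-like factor, and set-16, which encodes a histone H3 methyltransferase of the MLL family, had a signal of 124.4. The drr-2 and set-16 summit was nearly central, 171 and 175 bp from the 2 starts. The shortest gap, 92 bp, was that of ears-2, a glutamyl-tRNA synthetase gene, and uncp-18, with a signal of 83.6. The summit at atp-1, which encodes a subunit of ATP synthase, lay 7 bp inside the gene and so outside the gap to mcrs-1, at a signal of 134.5.

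In 6 members the summit lay in the windows of 3 genes that were not all on 1 strand. The highest signal of these, 89.3, was at W03C9.5, rab-7 and mex-1, where rab-7 encodes a late endosomal GTPase and mex-1 a germline RNA-binding protein. The next, 85.3, was at ant-1.1, an adenine nucleotide translocator gene, with T27E9.2 and abcf-2. The summit at F29B9.11, jmjd-1.2 and mrps-21 had 82.2, where jmjd-1.2 encodes a histone demethylase and mrps-21 a mitochondrial ribosomal protein. The other 3 were those of K10D2.5 with prp-19 and emb-1 (67.9), Y71H2AM.20 with cox-6B and nduc-2 (67.2), and R186.8 with lin-46 and R186.3 (59.6).

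Signal differed with the arrangement of genes in the main list. The median was 73.7 for divergent members and 75.03 for windows of 3 or more genes on both strands, against 60.5 for same-strand and 59.5 for single-gene windows. As a rank within the list, members in windows of more than 1 gene stood a median of 19.4 percentile points above those in 1. The direction of this difference did not hold in each library: it was 28.5 points in the conservative list, 16.6 points in the thresholded list of replicate 1 alone and -4.20 points in that of replicate 2 alone. Of the 50 members of highest signal 16 were divergent, against 6 of the 50 of lowest signal.

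**Figure D2:**
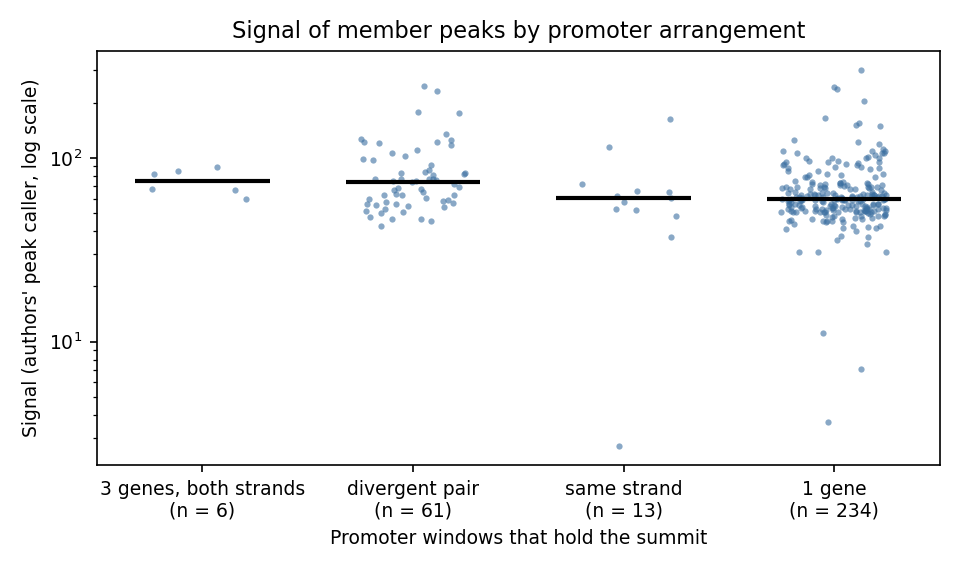
Signal of each member peak (points, log scale) by the promoter windows that hold its summit, with the median as a black bar. The divergent pairs (median 73.7) sit above single genes (median 59.5) with wide overlap, and the highest value, 302.1, belongs to a single-gene window.

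The members as a whole were of middling strength in their list. Their median signal was 61.5 (quartiles 52.8 and 76.4, range 2.69 to 302.1), against 69.8 for promoter peaks near small RNA genes and 61.1 for peaks outside promoter windows. Their median rank was the 48.8th percentile of the list, against the 65.8th and the 48.4th. The upper end was nevertheless well filled, with 13 of the 25 strongest peaks of the list being members. Of the members, 302 had the common width of 256 bp, and the 12 narrower ones, of 64 to 170 bp, were all among the 50 of highest signal. Signal by distance had its highest median, 67.5, from 200 to 1 bp upstream, and its lowest, 54.7, from 100 to 300 bp downstream.

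The member of highest signal lay 289 bp upstream of rpl-3, a large-subunit ribosomal protein gene. Its signal was 302.1 in the main list, 147.2 in the ranked list of replicate 1 and 147.5 in that of replicate 2, where it ranked 14 in each. The peak at F44E5.4 had 123.5 and 121.0 in replicates 1 and 2, and the peak 269 bp upstream of mog-4, a gene for a DEAH-box splicing helicase, had 125.6 and 103.9. At cdc-48.1, which encodes the AAA ATPase p97, the values were 113.6 and 125.4, and at tasp-1 they were 123.4 and 112.9. The summit 649 bp upstream of rpa-2, a subunit gene of the single-strand DNA binding factor RPA, had 113.7 and 102.1. These 6 members were high in both libraries, with ranks between 14 and 33.

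Some further members among the 25 of highest signal were less even between libraries. The peak 911 bp upstream of cbp-1, the p300 histone acetyltransferase gene, had a signal of 30.5 in replicate 1, rank 1207, and 75.9 in replicate 2, rank 56. These are values of the ranked peak with the nearest summit. A peak of the thresholded list of replicate 1 also overlapped this member. At rpl-12 the signal was 85.6 in replicate 1, rank 48, and 41.6 in replicate 2, rank 277. At eel-1, which encodes a HECT ubiquitin ligase, the values were 82.6 and 50.4. At pck-2, a phosphoenolpyruvate carboxykinase gene, they were closer, at 95.7 and 77.9.

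The 4 members of lowest signal were next to other members. The summit of 2.69 near lsm-6 lay 310 bp from one at Y71G12B.13 with a signal of 30.8. Summits of 3.67 at F17C11.4, 7.14 at suf-1 and 11.2 at K01G5.8 lay 200, 200 and 203 bp from summits of 60.5, 52.9 and 57.9 of the same genes. No other member had a signal below that of the epn-1 peak, 30.7. In all, 18 of the 383 genes with a member summit had 2 of them, among them eel-1 (154.2 and 78.2), egl-30, a Gq protein gene (115.1 and 60.5), sms-3 (101.4 and 78.9) and hsp-1 (95.2 and 56.2).

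Each replicate also has its own thresholded list, of 343 and 345 peaks for replicates 1 and 2. A peak overlapping the member by at least 1 bp was in the list of replicate 1 for 99 members (31.5%) and in that of replicate 2 for 100 (31.8%). Both lists held 61 members (19.4%, interval 15.2 to 24.2%), 1 list held 77 and neither held 176 (56.1%). The conservative list held 64.0%. In the same terms, both lists held 21.1% of promoter peaks near small RNA genes and 14.96% of peaks outside promoter windows, and the intervals of the 3 shares overlap. Recovery followed signal: both lists held 47 of the 50 strongest members and 1 of the 50 weakest, and the median signal was 105.8 for members in both lists and 55.4 for members in neither. Both lists held 17 of 61 divergent members (27.9%, interval 17.2 to 40.8%) and 40 of 234 single-gene members (17.1%, interval 12.5 to 22.5%), and these intervals overlap.

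A ranked candidate peak overlapped 307 members in both libraries. Over these 307 peaks, which share libraries and assay, the 2 signals had a Pearson correlation of 0.71 and a Spearman correlation of 0.36, given as a description. The highest values in both libraries belonged to members in both thresholded lists. For some of these, such as cbp-1, the ranked peak with the nearest summit stood low in 1 library. That ranked peak need not be the one in the thresholded list, where any overlap was counted.

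**Figure D3:**
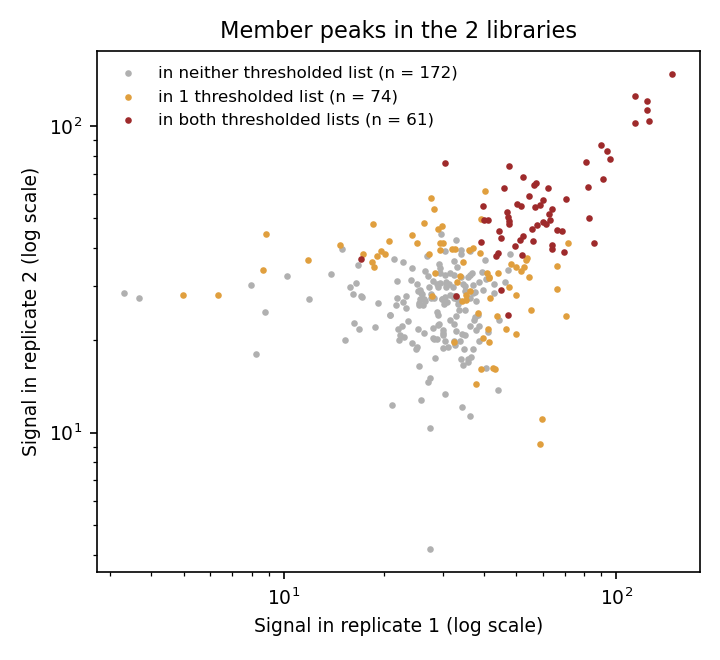
Signal of 307 member peaks in the ranked candidate lists of replicate 1 (horizontal) and replicate 2 (vertical), both on log scales, coloured by presence in the thresholded lists of both, 1 or neither replicate. The 61 members in both lists reach 147.2 and 147.5.

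Member summits were rich in G and C. The window reaching 50 bp to each side of the summit held 46.5% ± 9.29 GC (SD, n = 314 peaks), against 35.7% ± 8.52 in windows 300 bp to each side (n = 628). Windows centred 210 bp upstream of the starts of all 19973 protein-coding genes held 34.3% ± 8.24. That offset is the median distance of members, whose own distances ran from -999 to 291 bp. The promoter windows are therefore not matched to members in distance or annotated feature. The summit exceeded the mean of its flanks in 265 of 314 members (84.4%), by 10.8 ± 10.9 percentage points (SD over peaks). Promoter peaks near small RNA genes averaged 49.2% and peaks outside promoter windows 45.8%, so a GC-rich summit was shared by all 3 classes. Sequence that the genome file soft-masks as repetitive took up most of the window in 9.55% of member summits and 25.5% of their flanks.

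GC content also varied among members. It was 51.7% ± 7.64 in divergent and 44.8% ± 9.13 in single-gene windows (SD over 61 and 234 peaks). It averaged 49.8% in members found in both replicate lists and 45.5% in those in neither, and 49.5% in the 105 members of highest signal and 44.9% in the 105 of lowest. Members on the X chromosome averaged 50.8% and those on chromosome V 43.7%. Summits in a 3′ UTR had the lowest mean among features, 37.5% over 13 peaks.

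**Figure D4:**
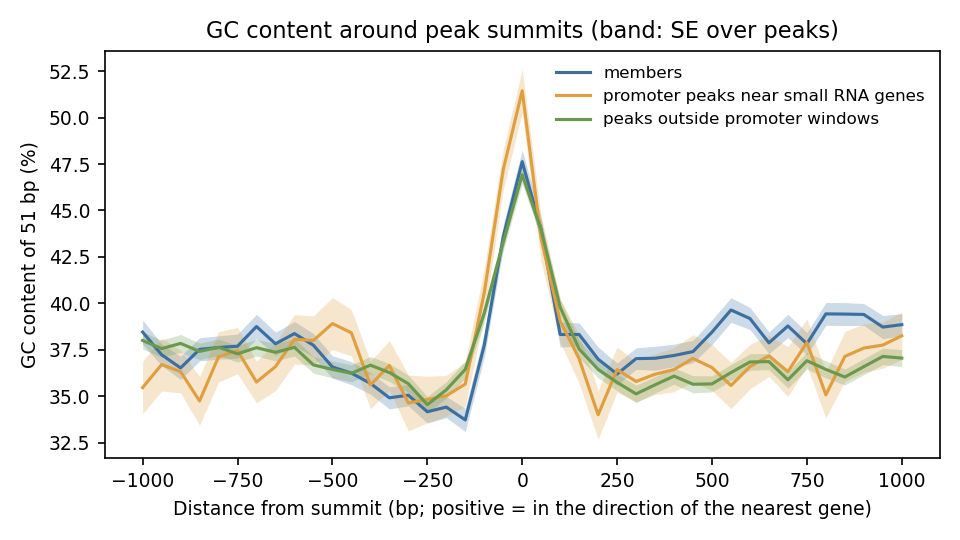
Mean GC content of 51 bp windows at distances up to 1000 bp from the summit for members, promoter peaks near small RNA genes and peaks outside promoter windows, with bands of 1 SE over peaks. All 3 classes peak at the summit and return to flanking values within about 200 bp.

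A search for 24 short motifs on both strands of the same windows gave a few that were more frequent at member summits than in flanks. The palindrome CGCG stood at 36.6% of member summits (interval 31.3 to 42.2%), 10.5% of flanks and 10.9% of all promoters. The promoter windows are again those centred 210 bp upstream, not matched to members in distance. The GA repeat GAGAGA stood at 14.97%, 5.73% and 7.17% of the same windows, and the GT repeat GTGTGT at 10.2%, 5.41% and 4.09%. The E box CACGTG, a site read by basic helix-loop-helix proteins, stood at 7.01%, 1.27% and 1.55%, and the GC box CCGCCC at 5.10%, 1.27% and 2.30%. Part of this was shared by the other peaks of the list. CGCG stood at 42.3% of promoter peaks near small RNA genes and 25.5% of peaks outside promoter windows, GAGAGA at 15.5% and 14.05%, GTGTGT at 7.04% and 8.58%, and the GC box at 5.63% and 5.47%. The E box was at 0 of the 71 promoter peaks near small RNA genes (up to 4.23% allowed) and 4.74% of peaks outside promoter windows. CGCG or GAGAGA was present at 142 of 314 summits (45.2%), and 20 summits held both.

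Other elements were less frequent at member summits than in the comparison windows. The TATA box letters TATAAA stood at 3.82% of member summits, 9.08% of flanks and 13.2% of all promoters. The T run TTTTTTTT stood at 3.18%, 10.2% and 13.0%, and the trans-splice acceptor letters TTTTCAG at 5.10%, 14.01% and 9.33%. The B box, GTTCGANNC, stood at 1.27% of member summits and 0.556% of all promoters, against 29.6% of promoter peaks near small RNA genes and 11.7% of peaks outside promoter windows. The rule itself set peaks near tRNA genes, which carry this motif, in the comparison class, so nothing is read from that contrast.

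The remaining listed motifs stood close to their background. CCAAT was at 17.2% of member summits and 18.6% of all promoters, the GATA letters TGATAA at 7.96% and 11.0%, and the heat shock element core GAANNTTC at 4.46% and 6.86%. The DAF-16-associated element CTTATCA was at 3.50% and 2.51%, the nuclear receptor half-site AGGTCA at 2.87% and 2.72%, the SKN-1 letters ATGACAA at 1.27% and 2.28%, and the YY1-like letters CCATCTT at 1.27% and 1.27%. The AP-1 letters TGACTCA and the E2F letters TTTGGCGC were at 0.637% of summits, with 1.22% and 0.350% of promoters. The CRE TGACGTCA, the forkhead letters GTAAACA, the ETS letters CCGGAAG and the E2F letters TTTCCCGC were each at 0.318% of summits, with 0.626%, 1.60%, 0.551% and 0.586% of promoters. The DREF letters TATCGATA and the NRF-1 letters GCGCATGC were at 0 of 314 summits, which allows a share of up to 0.955% of summits, with 0.155% and 0.125% of promoters. Letters that are absent from this window say nothing about the factors that read them.

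Because the summits are rich in G and C, the shares were also read in windows of 40 to 55% GC, 177 of the members and 4319 of all promoters. There CGCG stood at 36.7% of members (interval 29.6 to 44.3%) and 24.0% of promoters, and the E box at 7.34% (interval 3.97 to 12.2%) and 2.62%. GAGAGA stood at 14.1% and 13.7%, GTGTGT at 9.04% and 7.18%, and TTTTCAG at 5.08% and 5.58%, each within the members' interval. TATAAA stood at 2.26% (interval 0.619 to 5.68%) and 5.74%, just outside the members' interval, and the T run at 1.69% (interval 0.351 to 4.87%) and 4.21%, inside it. In this GC range the promoter value thus lay outside the members' interval for CGCG, the E box and TATAAA. GC content was not matched inside the range, and over all windows it averaged 46.5% in members and 34.3% in promoters. Distance to the start was not matched either. The part of any remaining GC or distance difference in these contrasts was not tested.

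**Figure D5:**
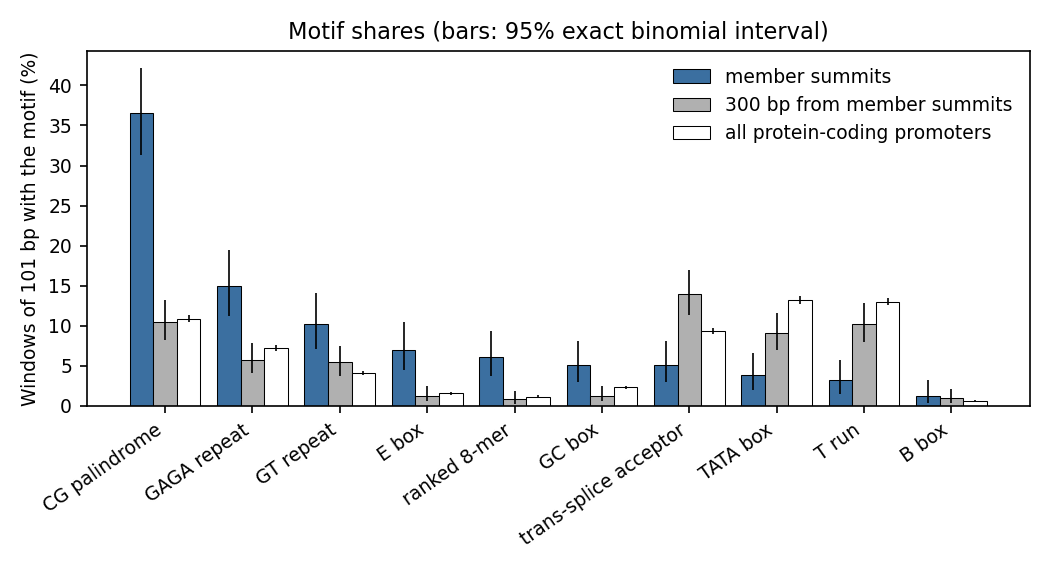
Share of windows (50 bp to each side of a centre) with each motif at member summits (blue), 300 bp from them (grey) and in all protein-coding promoters (white, centred 210 bp upstream), with 95% exact binomial intervals. The CG palindrome, CGCG, stands at 36.6% of member summits against 10.5% of flanks and 10.9% of promoters, and the TATA box, T run and trans-splice acceptor run the other way.

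CGCG varied among members with signal and recovery. It stood at 37 of 61 members found in both replicate lists (60.7%, interval 47.3 to 72.9%) and 54 of 176 in neither (30.7%, interval 24.0 to 38.1%). It was at 53.3% of the 105 members of highest signal, 24.0% of the 104 in the middle and 32.4% of the 105 of lowest, so it did not climb evenly with signal. The share above the median signal minus that below it was 14.6 points, with 23.9 points in the conservative list and 12.9 and 25.3 points in the lists of replicates 1 and 2 alone. Members with CGCG had a median signal of 68.2 and those without 59.6. Of its 175 occurrences, 48.0% lay within 20 bp of the summit. It stood at 56.2% of X-linked members and 23.8% of those on chromosome V, the chromosomes of highest and lowest member GC. GC content moved with signal, recovery and chromosome as well, and its part in these CGCG differences was not tested.

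Words of 6 bases were ranked by their excess over flanks on chromosomes I, III and V (173 members) and then read on II, IV and X (141 members). GAGAGA ranked first and stood at 13.5% of the second set against 6.38% of its flanks. The next words had smaller excesses there: ACACGC stood at 6.38% against 2.13% of flanks, while AGAGAA was at 17.7% against 15.2% and the share of AATGCG was 4.96% against 3.19%. Among the others of the first 10, ACGCAG stood at 13.5% against 3.19% of flanks. GACGCA stood at 11.3% against 3.19%, as did the word CGCAGA, while the share of GCGCAC was 11.3% against 0.709% and that of CGCTCC was 7.80% against 2.48%. ACTTGC, at 12.1% in the ranking set, stood at 1.42% in the second set, against 4.61% of flanks. The words that ranked 4, 7 and 8 in the first set, of which ACGCAG is one, overlap in 1 longer word. Words of 8 bases were ranked in the same way on I, III and V. Of the first 10, AGACGCAG, which covers those words in part, was picked because its share on II, IV and X was the highest. Both sets of chromosomes thus chose it, so its excess over flanks follows in part from the choice and tests nothing.

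The 8-mer stood at 19 members (6.05%, interval 3.68 to 9.29%), 0.796% of flanks, 1.14% of all promoters, 0 of 71 promoter peaks near small RNA genes (up to 4.23% allowed) and 2.92% of peaks outside promoter windows. In windows of 40 to 55% GC it stood at 5.65% of members (interval 2.74 to 10.1%) and 3.43% of promoters, and the interval includes the promoter value. Members with it had a median signal of 75.4, and those without 60.5. Its signals ran from 45.6 at cebp-1, a C/EBP transcription factor gene, to 245.8 at F44E5.4. Genes with it include the chaperone gene hsp-3 (3 bp upstream, signal 64.6), the translocon gene sec-61.G (223 bp upstream, 163.5) and the Mediator gene mdt-26 (110 bp downstream, 75.4).

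In all, 383 of 19973 protein-coding genes, 1.92%, had a member summit in their window, and the counts of gene lists are read against this share. A gene with a summit in its window is called occupied here, with nothing said of its regulation. A summit counts for every gene whose window holds it, also where another gene's start is nearer. Among cytosolic ribosomal protein genes 14 of 81 were occupied (17.3%, interval 9.78 to 27.3%), from rpl-3 (302.1), rpl-20 (178.5) and rpl-15 (176.1) at the top to rpl-30 (46.6) at the bottom. Their summits lay upstream in 13 of the 14 genes, the exception being rpl-27 at 107 bp downstream. Another gene's start was nearer to the summit for rpl-20, rps-19, rps-20, rpl-22 and rpl-30. Mitochondrial ribosomal protein genes had 2 of 70, mrps-21 and mrpl-32, a share of 2.86% near the background.

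Other genes of protein synthesis and folding followed. Translation factor genes had 5 of 43 (11.6%), with iff-2, the eIF5A gene, at 122.5, ifet-1 at 98.3 and eef-1G, an elongation factor 1 subunit gene, at 74.99. The ifet-1 summit, 507 bp away, is also that of rps-1, whose start was nearer at 261 bp. Aminoacyl-tRNA synthetase genes had 1 of 32, ears-2. The heat shock protein list, drawn by gene symbol, had 6 of 22 (27.3%, interval 10.7 to 50.2%). It was led by hsp-1, the constitutive Hsp70 gene (95.2), hsp-90 (82.5) and hsp-60, the mitochondrial chaperonin gene (76.3). Another gene's start was nearer to the summit for hsp-90, hsp-60 and hsp-110. The Hsp70 family genes F44E5.4 and F44E5.5, whose shared summit had the higher signal of 245.8, are not counted in that list. J-domain co-chaperone genes had 2 of 29, dnj-13 (96.9) and dnj-28 (83.0), and the CCT chaperonin had 1 of 8, cct-8 (110.1). Ubiquitin conjugation genes had 5 of 37 (13.5%), led by the HECT ligase genes eel-1 (154.2) and wwp-1 (149.9), followed by ubc-6 (74.4). The proteasome had 2 of 33, rpn-11 (49.3) and rpn-3 (45.6).

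In energy metabolism and membrane traffic, the respiratory chain and ATP synthase list had 6 of 46 (13.0%, interval 4.94 to 26.3%), led by atp-1 (134.5) and the cytochrome oxidase genes cox-5A (111.1) and cox-5B (91.5). Glycolysis and gluconeogenesis had 3 of 21, pck-2 (165.5), the enolase gene enol-1 (44.9) and gpi-1 (42.0). Secretory pathway genes had 6 of 52 (11.5%), with sec-61.G (163.5), rab-7 (89.3) and trap-2, a translocon-associated protein gene (69.5). The genes trap-3 and sec-61.B of this list are counted apart but share the same summit. The vacuolar ATPase had 1 of 20, vha-12, and mitochondrial import 1 of 13, timm-17B.1.

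Among nuclear genes, the DREAM and synMuv list, whose complex represses cell cycle and germline genes, had 4 of 18 (22.2%, interval 6.41 to 47.6%). They were lin-54 (126.9), lin-53 (81.2), lin-35, the worm Rb gene (76.4), and lin-52 (72.5). Each of these summits also lay in the window of a gene outside the list. The other start was nearer for lin-54 (377 bp, against 16 bp for rpl-12) and lin-52 (527 bp, against 155 bp for ZK632.9). It was almost equally near for lin-53 (234 bp, against 233 bp for nra-2), and farther for lin-35 (184 bp, against 234 bp for vps-51). Histone modifier genes had 4 of 66, led by set-16 (124.4), cbp-1 (118.6) and jmjd-1.2 (82.2). Splicing genes had 3 of 51, mog-4 (242.4), prp-19 (67.9) and prp-8 (65.6). RNA polymerase II, TAF and Mediator genes had 2 of 51, mdt-26 and taf-4, histones 3 of 81, with his-37 (69.1), htz-1 (56.5) and his-72 (41.6), and DNA replication 1 of 39, rpa-2 (203.4). Kinesin, dynein and tubulin genes had 3 of 37, tba-2 (100.1), dlc-1 (63.8) and tba-1 (46.6).

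Large gene families made up the rest of the lists. Chemoreceptor genes had 4 of 1309 (0.306%, interval 0.0833 to 0.780%), led by srh-2 (87.8), F-box genes 2 of 322, fbxb-58 (100.1) and fbxb-72 (71.8), and C-type lectin genes 1 of 240, clec-72 (43.8). Nuclear hormone receptor genes had 3 of 269 (1.12%), nhr-68 (59.1), nhr-105 (56.0) and nhr-17 (39.97). Neuropeptide genes had 1 of 140, ins-39. Cuticle collagens had 0 of 181, cytochrome P450 and glucuronosyltransferase genes 0 of 141, homeobox genes 0 of 63 and major sperm protein genes 0 of 48, where a count of 0 allows shares of up to 1.66%, 2.13%, 4.76% and 6.25%. In small lists, 2 of 7 vitellogenin genes (vit-6 at 69.6 and vit-2 at 59.0), 1 of 7 fatty acid desaturase genes (fat-6 at 54.3) and 1 of 11 GATA factor genes (elt-2, the intestinal regulator, at 57.2) were occupied. The vit-6 and vit-2 summits lay in coding exons, 200 and 72 bp downstream of the start. Neither was in the thresholded list of either replicate, and the conservative list lacked the vit-6 peak. In all, 90 occupied genes were on 1 or more of the 33 lists. The lists were chosen with earlier results of these data known, so setting their intervals against the background describes them and tests nothing. The interval lay wholly above 1.92% for 9 lists, namely cytosolic ribosomal proteins, respiratory chain, translation factors, heat shock proteins, ubiquitin conjugation, DREAM and synMuv, secretory pathway, glycolysis and vitellogenins. It lay wholly below for chemoreceptors, and for the other 23 lists, all the remaining large families included, it held the background share. For cuticle collagens the exact interval reached 2.02%, just above the background. Their limit of 1.66% given above, from the rule of 3 counts, lies below the background, so that list is borderline.

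The rule sets sharp edges. At the upstream edge the member farthest out, at Y69A2AR.31, was at -999 bp (signal 55.9), and the nearest peak beyond, at acer-1, was at -1043 bp (61.5). Downstream, the member at arf-1 lay 291 bp inside (53.1), and the nearest peak beyond, at pmt-2, 302 bp inside (57.4). At the small RNA edge, the member nearest to a small RNA start was the cdc-48.1 peak, 522 bp from C06A1.9 with a signal of 238.1, and the nearest excluded promoter peak was that of tag-115, 411 bp from JC8.15 with 56.3. The rule covers 1087 small RNA genes (612 tRNA, 346 snoRNA and 129 snRNA) and not other noncoding classes. Within 500 bp of the start of a gene annotated as ncRNA lay 36 members (11.5%). For piRNA genes the number was 6 (1.91%), for miRNA genes 3, for lincRNA genes 3 and for rRNA genes 0. The annotation holds 7764 ncRNA and 15363 piRNA genes. The share of eligible bases that near to their starts was not counted, so nothing is read from these numbers.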

How the data were processed

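The authors deposited peak lists of chromatin immunoprecipitation sequencing on ce11, with a signal, a score and a summit per peak. The signal of a peak is the value deposited by the authors, on a scale not stated, and was used only within a list. The score deposited by the authors follows the reproducibility of peaks between lists. Aligner and peak caller are not given in the sources used. Lists carry no read totals, so depth is unknown and precision rests on numbers of peaks.

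Starts came from Ensembl release 115 of WBcel235, with 29314 starts of 19973 protein-coding genes, and sequence from RefSeq. A member's distance is to the nearest start whose window holds its summit. Eligible bases were those in a window and more than 500 bp from a small RNA start. Sequences of windows on chromosome I are not shown. Motifs were searched on both strands, where GAGAGA and AGACGCAG can overlap. No difference between conditions was measured, so no test was made, and shares have exact (Clopper-Pearson) intervals. A count of 0 was given a limit of 3 counts. A replicate value is that of the overlapping ranked peak with the nearest summit. The rule for named genes took the 40 members of highest signal, up to 3 per gene list, the 15 strongest divergent members, windows of 3 or more genes on both strands, the edges of the rule and the 6 lowest members. The genes cebp-1, hsp-3, hsp-110, lin-52, rpl-22, rpl-27, rpl-30, rps-20 and those of the 8-mer and E box windows were named after their values were seen. Members, gene lists and motifs were chosen with earlier results of these data known. Window and distance code was tested on planted summits. Results were recomputed with other lists, windows, small RNA distances and sequence lengths. Values were computed in Python 3.11.15 with pandas 2.3.3, numpy 2.4.6 and scipy 1.17.1, and drawn with matplotlib 3.10.9.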

Additional observations from a re-analysis of the deposited data

How the results depend on the processing

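No paired analysis was possible because both libraries belong to 1 group. Of 100 alternative values of 11 results, 61 stayed within a set range of the main value, 38 left it and 1 changed sign. For shares that range was the exact interval, and for counts of genes a fixed fold range. For medians and differences it was the SD between the values of both replicate lists. The signal rank of members in windows of more than 1 gene minus those in 1 was 19.4 points and became 16.6 in the list of replicate 1 alone and -4.20 in that of replicate 2 alone, in an alternative chosen after seeing the data, and the cause was not tested. Other values give the alternative only.

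With the list of either replicate alone, windows of more than 1 gene held 33.3 to 33.6% of members, the median signal rank was 54.1 to 59.6, the GC difference 11.3 to 12.7 points and the CGCG share 44.9 to 47.9%. These lists are shorter: 141 to 148 genes were occupied, of them 40 on a gene list. With peaks of score 1000, the median distance was -186.5 bp, windows of more than 1 gene held 30.9%, both replicate lists held 32.4%, the GC difference was 12.4 points, the CGCG share 43.6% and 244 genes were occupied. With peaks of at least the median signal, the same values were 34.0% for windows of more than 1 gene, 39.2% in both lists, 12.9 points and 44.4%, with 208 occupied genes and 55 on a list.

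A promoter window from 500 bp before the start to 100 bp after it left 23.4% of peaks as members, with a median distance of -171.5 bp, 17.9% in windows of more than 1 gene and 255 occupied genes. One from 2000 bp before to 500 bp after it gave 42.3%, -260 bp and 38.5%, with a median signal rank of 44.9. With 1 start per gene 30.4% of peaks were members. Narrower (51 bp) and wider sequence windows, of 100 bp to each side, gave CGCG shares of 22.6% and 48.1%. The GC difference was 7.67 points with the wider windows and 8.77 points with flanks at 500 bp.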
